A study of Mus musculus with 16 samples.

Results

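The 35 genes described here encode the core machinery of macroautophagy, and they were picked by symbol out of the 24946 named genes of the tables. Autophagy delivers cytoplasmic cargo to lysosomes inside a double-membraned vesicle, the autophagosome. The ULK kinase complex starts it, a class III phosphatidylinositol 3-kinase (PI3-kinase) marks the growing membrane, WIPI and ATG2 proteins feed lipid to it, and a pair of ubiquitin-like conjugation systems couples ATG8 proteins (LC3 and GABARAP) to its lipids, where cargo receptors dock. The kinase complex mTORC1 is known to hold autophagy back by phosphorylating ULK1 and ATG13, and to keep the transcription factor TFEB, an activator of lysosomal and autophagy genes, in the cytoplasm. Tsc2 encodes tuberin, which restrains mTORC1.

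The cells were neural stem cells (NSCs) grown from the V-SVZ (ventricular-subventricular zone), the neurogenic niche along the lateral ventricles, of mouse pups that were Tsc2 wild type/wild type (control) or Tsc2 mutant/mutant (mutant). The pups had been injected with tamoxifen to activate a Cre recombinase that a Nestin promoter drives, and the cross carried a tdTomato reporter, so in mutants recombination is limited to cells that expressed Nestin and their progeny. The sources used here leave unclear whether control pups carried Cre. All cultures were treated with cycloheximide for 15 minutes before lysis. Each of 4 control and 4 mutant cultures gave 1 total RNA library and 1 polyribosomal RNA library, the latter from the heaviest 3 mL of a sucrose gradient, where transcripts loaded with several ribosomes sediment. The 16 libraries thus fall into 4 groups of 4, and the question was how loss of Tsc2 changed transcript abundance, ribosome-bound abundance and the ratio of both kinds of RNA, called translational efficiency.

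Values are normalized reads, and the columns summed to 65.6 to 73.7 M for total and 87.4 to 100.5 M for polyribosomal RNA, from an estimated 24.7 to 139.7 M and 50.6 to 267.8 M reads. NSC markers (Nes, Vim, Sox2, Fabp7, Tnc and Slc1a3) summed to 631168 to 761926 normalized reads in control and 666630 to 721793 in mutant total RNA, with none at 0. Vim alone averaged 351712 in control and 387270 in mutant total RNA. By limma, Fabp7 fell (log2 change -0.65 ± 0.20, adjusted p = 0.0271) and Slc1a3 rose there (0.24 ± 0.08, adjusted p = 0.0362), while 4 did not pass. In polyribosomal RNA Tnc fell (-0.56 ± 0.18, adjusted p = 0.0367) and 5 did not pass. Tsc2 itself was measured at 7836, 6817, 6232 and 6701 normalized reads in the total RNA of control cultures 1 to 4 and at 7076, 6811, 6190.4 and 5592 in mutant cultures 1 to 4 (log2 change -0.10 ± 0.10, adjusted p = 0.422), and in polyribosomal RNA at 13164, 10615, 11506 and 10505 against 9339, 8829.7, 8899 and 5956 (-0.49 ± 0.15, adjusted p = 0.0389). A gene-level value cannot show the loss of single exons. Some libraries stood apart in ways that genotype does not define. The 12 microglial markers summed to 21597 and 12012 normalized reads in the total RNA of mutant cultures 2 and 4, against 3204 and 4913 in mutant cultures 3 and 1 and 2882 to 4816 in controls. The mean log2 level of 4 Y-linked genes was 9.92, 10.19, 10.43 and 5.94 in control cultures 1 to 4 and 10.15, 3.71, 2.22 and 1.00 in mutant cultures 1 to 4, so Y-linked expression was not balanced between genotypes. Mutant cultures also held more transcripts of glial markers, with all 6 oligodendrocyte and 4 of 5 astrocyte markers higher in both kinds of RNA. In bulk RNA, more cells of a type and more RNA per cell cannot be told apart.

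In total RNA, more autophagy transcripts were higher than lower in mutant cultures. Of the 35 members, all of which passed the filter on low values, 13 rose and 2 fell past an adjusted p of 0.05 (limma), against 19.7% and 20.7% of the 14967 genes tested. Those 15 calls in either direction are a share close to that of all tested genes, 40.3%. At an unadjusted p of 0.05, 16 were higher and 5 lower, against 25.2% and 25.4% of tested genes. Their median log2 change was 0.25, beside 0.01 over all tested genes. The rises lay in the cargo receptors (3 of 5), the ATG8 family (3 of 5), the ULK complex (3 of 5), the PI3-kinase complexes (2 of 5) and the WIPI and lipid transfer group (2 of 5). The falls were 1 of 6 conjugation genes and 1 of 4 ATG4 proteases, and no gene of these last groups rose. The 4 mutant values were all above the 4 control values for 9 members, against 17.8% of tested genes, and all below for 3, against 20.3%.

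Among these 13 rises the call count fell to 8 without mutant culture 1, where rises over all tested genes numbered 2081 (2944 with all cultures). It fell to 1, Pik3r4, once the Y-linked level entered as a covariate, a fit that took the calls over all tested genes from 6035 to 1063. In that fit the median log2 change of the members was 0.20, and all 13 changes stayed above 0. Ulk1 was at 0.59 ± 0.17 (adjusted p = 0.0571), beside 0.49 ± 0.12 without the covariate. Map1lc3a was at 0.69 ± 0.18 (adjusted p = 0.0538), beside 0.66 ± 0.13. Wipi1 was at 0.65 ± 0.24 (adjusted p = 0.0952), beside 0.84 ± 0.18. Without mutant cultures 2 and 4, the cultures rich in microglial markers, 18 members were called higher, beside 3213 of the 14967 genes tested. Among the 13 members called higher with all cultures, mutant culture 2 held the lowest mutant value for 10 and mutant culture 4 for 3. Leaving these cultures out therefore enlarges those changes by construction. The falls numbered 1 without control culture 2 or mutant culture 3, beside 2167 and 2359 over all tested genes, and 0 with the covariate.

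**Figure D1:**
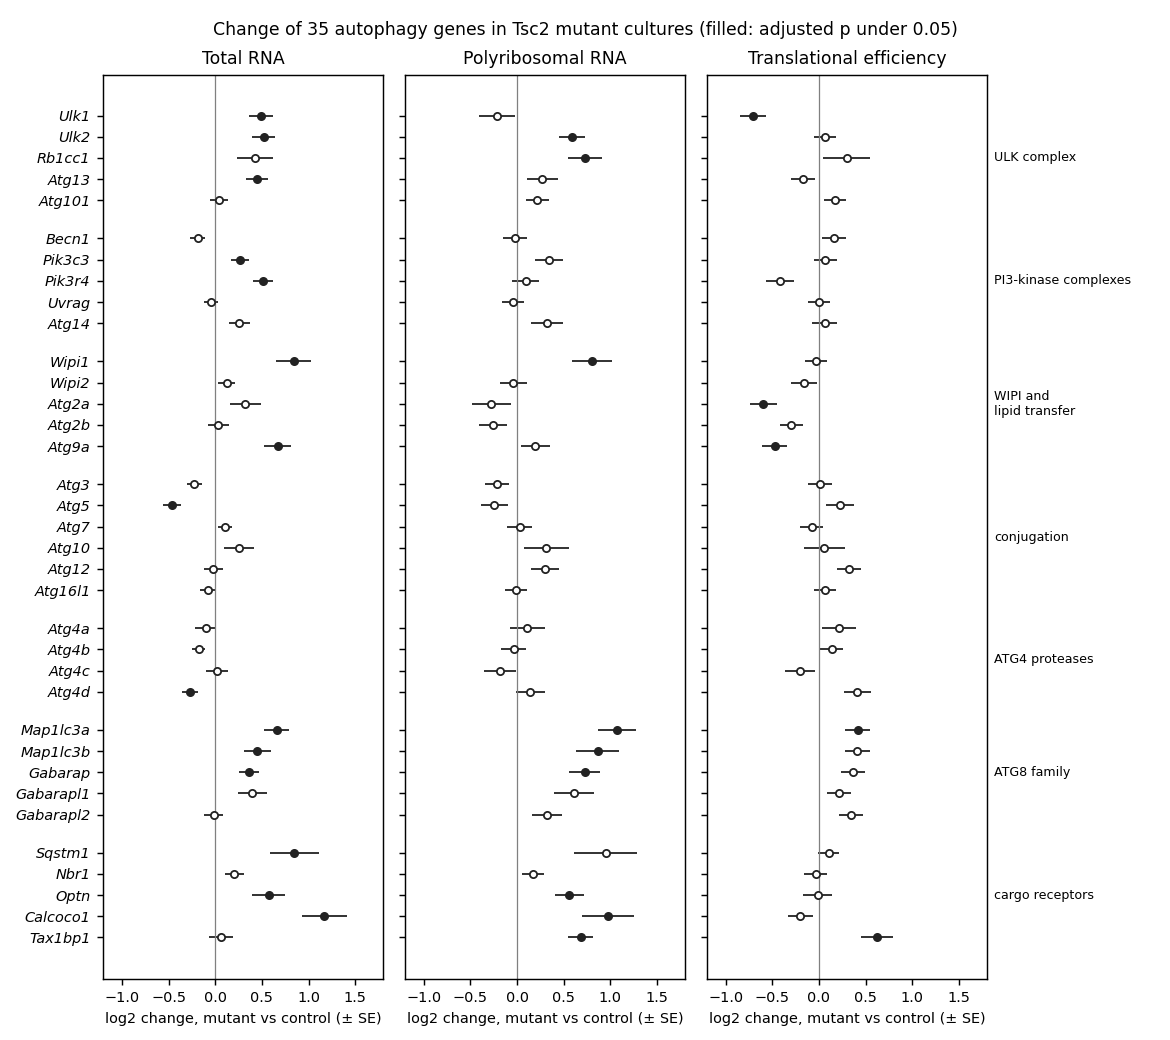
Log2 change of each of the 35 autophagy genes in mutant against control cultures (x axis, ± SE from limma, n = 4 cultures per genotype) in total RNA, polyribosomal RNA and their ratio, grouped by role on the y axis. Filled points passed an adjusted p of 0.05: 15 in total RNA, 9 in polyribosomal RNA, all to the right of 0, and 5 in translational efficiency, 2 to the right and 3 to the left.

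The kinase genes of the ULK complex rose together in total RNA. Ulk2, which encodes the close relative of the initiating kinase ULK1, was measured at 2667, 2311, 2708 and 2722 normalized reads in control cultures 1 to 4 and 3933, 3032, 4568 and 3531 in mutant cultures 1 to 4 (2602 ± 195 against 3766 ± 649, SD, n = 4). No mutant value reached down to a control value, and the rise was 0.52 ± 0.12 on the log2 scale (adjusted p = 0.0097). Ulk1 (chr5:110784488-110810097) stood at 3119.6, 2364, 2235 and 2585 in controls and 3992, 3632, 3803 and 3003 in mutants, a rise of 0.49 ± 0.12 (adjusted p = 0.0129) in which control culture 1 lay above mutant culture 4. Atg13, the regulatory subunit that mTORC1 phosphorylates, was at 2287, 1931, 1848 and 2015 against 2838, 2306, 3280.1 and 2637, with no overlap and a rise of 0.45 ± 0.12 (adjusted p = 0.0146). The scaffold gene Rb1cc1, which encodes FIP200, changed by 0.43 ± 0.19, adjusted p = 0.0983, and the small subunit gene Atg101 by 0.04 ± 0.10, adjusted p = 0.741, neither past the threshold.

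Of the PI3-kinase genes, the lipid kinase and its scaffold were higher. Pik3r4, encoding the VPS15 scaffold, was measured at 2057, 1603, 1581 and 1791 normalized reads in control and 2739.8, 2433, 2563 and 2257 in mutant cultures 1 to 4 (1758 ± 220.5 against 2498 ± 204). The groups did not overlap, the rise was 0.51 ± 0.11 on the log2 scale (adjusted p = 0.00609), and it was the 1 call among the 13 that held under all 18 alternatives. Pik3c3, encoding the catalytic subunit VPS34, was at 1972, 1718, 1762 and 1778 against 2269, 1949.6, 2442 and 2065, a rise of 0.27 ± 0.09 (adjusted p = 0.0446) with overlapping groups, which did not pass when control culture 2, 3 or 4 or mutant culture 1, 3 or 4 was left out (adjusted p up to 0.113). Becn1, encoding the core subunit Beclin 1, changed by -0.19 ± 0.08, adjusted p = 0.0821. Atg14 and Uvrag encode the subunits that set 2 alternative forms of the complex apart, the former acting in autophagosome formation and the latter at endosomes. Their log2 changes were 0.26 ± 0.11, adjusted p = 0.0935 and -0.04 ± 0.08, adjusted p = 0.669.

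In the group that binds the PI3-kinase product or moves lipid, Wipi1 and Atg9a rose. Wipi1 (chr11:109573331-109611967), encoding a phosphoinositide-binding propeller protein, was at 1761, 1743, 1540.5 and 1942 normalized reads in control cultures 1 to 4 and 2940.5, 2133, 4241 and 3533 in mutant cultures 1 to 4. Every mutant culture lay above every control, the highest being mutant culture 3, and the rise was 0.84 ± 0.18 on the log2 scale (adjusted p = 0.00731). Atg9a, encoding the lipid scramblase that seeds the membrane, was at 2704, 2533, 2092 and 2659 against 4517, 3404, 4894 and 3239, again without overlap (0.67 ± 0.15, adjusted p = 0.00723). Atg2a, encoding a lipid transfer protein, was at 2313, 2137, 1592 and 2064 against 3094, 2204, 2932 and 1977. Its groups overlapped and its change did not pass (0.32 ± 0.16, adjusted p = 0.14). The related genes Atg2b and Wipi2 changed by 0.03 ± 0.11, adjusted p = 0.816 and 0.12 ± 0.09, adjusted p = 0.287.

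Of the conjugation enzymes and ATG4 proteases, which attach ATG8 proteins to lipid and process them, 0 of 10 rose and 2 of 10 fell in total RNA, against 19.7% and 20.7% of all tested genes. Atg5 (chr10:44268358-44364291), whose product is joined to ATG12 to form part of the ligase, was at 2451, 2915, 3192 and 2723 normalized reads in control and 2039, 2172, 1839.9 and 2099 in mutant cultures 1 to 4 (2820.0 ± 312 against 2037 ± 142). All mutant values lay below all control values, a log2 change of -0.46 ± 0.10 (adjusted p = 0.0067). Atg4d, one of the proteases, was at 3270.5, 3396, 3125 and 3100.4 against 2791, 2706, 2367 and 2853, also without overlap (-0.27 ± 0.08, adjusted p = 0.0275), but 19.3% of its annotated exon bases are shared with Kri1 on the opposite strand, which fell too (-0.42, adjusted p = 0.0136), and the library kit did not mark strand. That call did not pass without control culture 2 or without mutant culture 3 (adjusted p = 0.0797 and 0.0611). Atg3, the E2-like enzyme for ATG8 proteins, changed by -0.22 ± 0.08, adjusted p = 0.0538 and Atg4b, the main ATG8 protease, by -0.18 ± 0.07, adjusted p = 0.0655, each short of the threshold. The E1-like enzyme gene Atg7, the E2-like Atg10, Atg12, Atg16l1, Atg4a and Atg4c changed by between -0.10 (Atg4a) and 0.25 (Atg10), with adjusted p from 0.229 (Atg10) to 0.916 (Atg4c).

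The ATG8 family, whose lipidated proteins coat the autophagosome, was higher in 3 of 5 genes. Map1lc3a (chr2:155276297-155278073), encoding LC3A, was at 3087, 3343, 2931 and 3385 normalized reads in control cultures 1 to 4 and 5572, 3944, 6175 and 4660.5 in mutant cultures 1 to 4 (3187 ± 215 against 5088 ± 984). The groups did not overlap, and the rise was 0.66 ± 0.13 on the log2 scale (adjusted p = 0.00545). Gabarap (chr11:69991143-69994951) was at 10896, 12378, 12466 and 11941 against 16939, 12804, 17041 and 14853, also without overlap (0.36 ± 0.10, adjusted p = 0.0204), although without mutant culture 1 its adjusted p was 0.0636. Map1lc3b, encoding LC3B, was at 7822, 8776, 8332 and 8892 against 12414, 8798, 15034 and 10856, where mutant culture 2 fell inside the control range. Its rise of 0.45 ± 0.14 (adjusted p = 0.0302) did not pass when any 1 control culture, or mutant culture 1 or 3, was left out (adjusted p up to 0.0792). Gabarapl1 changed by 0.40 ± 0.16, adjusted p = 0.0652 and Gabarapl2 by -0.02 ± 0.10, adjusted p = 0.908.

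Cargo receptors, which tie ubiquitinated proteins or organelles to ATG8 proteins, held the 2 largest log2 changes among the members. Calcoco1 (chr15:102706777-102722178), encoding a receptor for endoplasmic reticulum, was at 2479, 1959, 1564 and 2237 normalized reads in control and 4969, 3082, 7194 and 3962 in mutant cultures 1 to 4 (2059.8 ± 393 against 4802 ± 1771). The rise of 1.17 ± 0.24 on the log2 scale (adjusted p = 0.00554) came without overlap. Sqstm1 (chr11:50199366-50210827), encoding p62, which is itself degraded by autophagy, was at 22257, 20546, 18656 and 20710.4 against 40140.1, 23981, 67552 and 28317 (20542 ± 1475 against 39997 ± 19598). All mutant values were higher than all control values, yet they spread widely, from just above the controls in culture 2 to 67552 in culture 3. The rise of 0.85 ± 0.26 (adjusted p = 0.0287) did not pass without control culture 2, 3 or 4 or mutant culture 1 (adjusted p up to 0.0706). Optn, encoding the mitophagy receptor optineurin, was at 583, 495, 487 and 545 against 792, 564, 1074 and 784, with mutant culture 2 inside the control range (0.57 ± 0.18, adjusted p = 0.0268; without control culture 2, 3 or 4 or mutant culture 1, 3 or 4, adjusted p up to 0.0696). Nbr1 and Tax1bp1, encoding further receptors of ubiquitinated cargo, changed by 0.21 ± 0.10, adjusted p = 0.122 and 0.06 ± 0.13, adjusted p = 0.719.

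**Figure D2:**
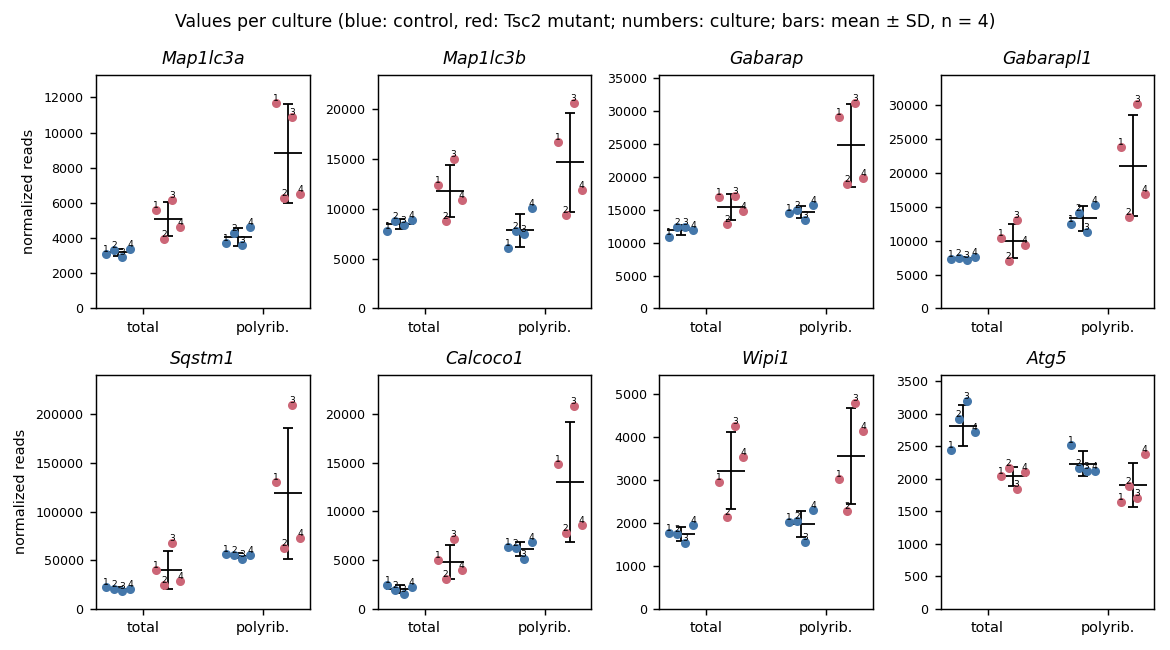
Normalized reads (y axis, linear from 0) of 8 autophagy genes in each of 4 control (blue) and 4 mutant (red) cultures, in total and polyribosomal RNA, with the culture number beside each point and bars for the mean ± SD. Mutant cultures 1 and 3 stand highest in both kinds of RNA for Map1lc3a, Map1lc3b, Gabarap, Gabarapl1, Sqstm1 and Calcoco1, while Atg5 is lower in all mutant than in all control cultures in total RNA.

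The mutant cultures differed from each other in a shared way. Among the 13 members called higher in total RNA, mutant culture 3 held the highest mutant value for 11 and mutant culture 1 for 2, whereas mutant culture 2 held the lowest for 10 and mutant culture 4 for 3. The median log2 difference of all 35 members from the control mean was 0.32, 0.01, 0.44 and 0.17 in the total RNA of mutant cultures 1 to 4, and 0.24, 0.07, 0.33 and 0.20 in polyribosomal RNA. The order was looser among the 9 members called higher in polyribosomal RNA. There mutant culture 3 was highest for 5, culture 4 for 2 and cultures 1 and 2 for 1 each. Mutant culture 2 was lowest for 6, culture 4 for 2 and culture 1 for 1. Marker levels moved alongside. The mean log2 level of 5 astrocyte markers was 12.97, 12.51, 13.60 and 13.15 in the total RNA of mutant cultures 1 to 4 against 11.90 to 12.08 in controls, and that of 6 oligodendrocyte markers was 10.13, 9.99, 10.35 and 9.84 against 8.20 to 8.53. The 4 choroid plexus markers summed to 189, 24.3, 2399 and 309 normalized reads against 14.0 to 21.1 in controls. Culture 3, highest for most members, was highest on all 3 of these lists and lowest among the mutants in microglial markers. The part of these cell types in the members' rise was not tested.

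On the scale of normalized reads per kb of principal coding transcript, the ATG8 genes and Sqstm1 led the members in control total RNA. Gabarap stood at 8823 ± 533 reads per kb (SD, n = 4) and Sqstm1 at 7685 ± 552, followed by Gabarapl1 at 4067 ± 105. Gabarapl2 (3433 ± 385) and Map1lc3b (3339 ± 192) did not differ beyond their spread, nor did Wipi2 (2874 ± 247) and Map1lc3a (2866 ± 194). At the other end lay Rb1cc1 (154 ± 36.4), Atg4c (152 ± 14.2) and Atg10 (112 ± 16.2), of which Rb1cc1 and Atg4c overlapped. In mutant total RNA Sqstm1 reached 14963 ± 7332 and Gabarap 11406 ± 1487 reads per kb, so their order could not be told from their spread.

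TFEB recognises E-box letters, and the windows before the annotated starts of the members were therefore read for short motifs. RefSeq promoter windows (GRCm38.p6, the same build as the mm10 genome of the files) were matched for 29 members, and the 250 bases before each start were searched on both strands. The palindromic E-box CACGTG lay in 6.02% of all 32851 windows and in 9.09% of the 33 windows of members. The 3 members with it were Atg3 (a pair of copies), Atg5 and Atg7, all of the conjugation group. The antioxidant response element TGACNNNGC, to which the transcription factor NRF2 binds, lay in 10.2% of all windows and in 9.09% of the members' windows, those of Ulk2, Atg13 and Tax1bp1. The M-box core CATGTG lay in 12.3% of windows and in that of Atg2a, 3.03% of the members' windows. The forkhead element GTAAACA (3.17% of windows) and the C/EBP-ATF element TGATGNAA (3.45%) were in no member's window. A role of these motifs in the members' changes was not tested. The 4 stretches below show the E-boxes of the conjugation genes and the antioxidant response element of Ulk2. Each is read 5′ to 3′ on the gene's strand, with the motif in capitals. None overlaps an annotated exon, and the Atg7 stretch lies in an intron of longer Atg7 transcripts, ahead of a RefSeq start inside the gene.
Atg3 (chr16:45158715-45158783, plus strand): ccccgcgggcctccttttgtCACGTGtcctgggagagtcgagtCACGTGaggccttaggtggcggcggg
Atg5 (chr10:44268305-44268338, plus strand): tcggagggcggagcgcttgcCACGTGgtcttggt
Atg7 (chr6:114670944-114670989, plus strand): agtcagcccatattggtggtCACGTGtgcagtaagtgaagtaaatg
Ulk2 (chr11:61855093-61855129, minus strand): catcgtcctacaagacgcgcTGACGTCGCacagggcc

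Of the genes behind these stretches, Atg5 fell and Ulk2 rose in total RNA, and the changes of Atg3 and Atg7 did not pass. The members Uvrag, Wipi1, Map1lc3b and Sqstm1 are listed in the textbook network of TFEB targets. Of these 3 rose in total RNA (Wipi1, Map1lc3b and Sqstm1) and 2 in polyribosomal RNA (Wipi1 and Map1lc3b), against 19.7% and 11.7% of all tested genes called higher. Of 18 alternatives the call in total RNA was lost under 9 for Map1lc3b, 6 for Sqstm1 and 1 for Wipi1. The windows of these members held no E-box of these letters.

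In polyribosomal RNA the members that moved were all higher in mutant cultures, and the ATG8 family and cargo receptors gave 3 calls each. Of 35 members 9 rose past an adjusted p of 0.05, against 11.7% of the 14412 genes tested, and 0 fell, against 11.9%, which in both directions together makes 23.6% of tested genes. At an unadjusted p of 0.05, 12 were higher and 0 lower, against 19.4% and 19.3%, and limma without variance trend or robust moderation also called 9 and 0. The median log2 change of the members was 0.22, beside 0.01 over all tested genes, and the groups did not overlap for 8 members, all with mutants above, against 13.3% of tested genes. Without control culture 2 or without control culture 3 the rises numbered 5, beside 981 and 1004 over all tested genes (1690 with all cultures). Without mutant cultures 2 and 4 they numbered 16 with 1 fall (Atg5), beside 2587 rises and 2815 falls over all tested genes. With the Y-linked covariate the rises numbered 0, in a fit that left 30 calls over all tested genes out of 3403. The median log2 change of the members was 0.24 in that fit, and all 9 changes stayed above 0. Map1lc3a was at 1.19 ± 0.27 (adjusted p = 0.0776), beside 1.07 ± 0.20 without the covariate. Rb1cc1 was at 0.72 ± 0.25 (adjusted p = 0.145), beside 0.73 ± 0.18. Wipi1 was at 0.51 ± 0.26 (adjusted p = 0.28), beside 0.80 ± 0.21.

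Map1lc3a showed the largest polyribosomal change of the 35. It stood at 3730.0, 4295, 3596 and 4635 normalized reads in control cultures 1 to 4 and at 11659.8, 6309, 10864 and 6487 in mutant cultures 1 to 4 (4064 ± 487 against 8830.1 ± 2828). Each mutant culture exceeded each control, and the rise was 1.07 ± 0.20 on the log2 scale (adjusted p = 0.00544). Gabarap was at 14506, 14988, 13511 and 15741 against 29211, 18968, 31344 and 19834, likewise without overlap (0.72 ± 0.17, adjusted p = 0.0111). Map1lc3b was at 6059, 7811, 7429 and 10043 against 16756, 9418, 20627 and 11890.2 (0.86 ± 0.23, adjusted p = 0.0208), with mutant culture 2 below control culture 4. The Map1lc3b call did not pass without control culture 1, 2 or 3 or mutant culture 1 (adjusted p up to 0.0631). Gabarapl1, at 13305 ± 1791 against 21124 ± 7447, and Gabarapl2, at 6521 ± 840.3 against 8254 ± 1712, had log2 changes of 0.61 ± 0.22, adjusted p = 0.0597 and 0.32 ± 0.16, adjusted p = 0.155, short of the threshold.

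Among the receptors, Tax1bp1 (chr6:52713729-52766780) was at 3935, 3087, 3456 and 3366 normalized reads in control and 4952, 5799, 5033 and 6470.2 in mutant polyribosomal RNA, a rise of 0.68 ± 0.13 on the log2 scale (adjusted p = 0.0057). The groups did not overlap, and here mutant culture 4 was the highest. Calcoco1 was at 6328, 6208, 5149 and 6908 against 14855, 7764, 20895 and 8599 (0.97 ± 0.27, adjusted p = 0.0287), again without overlap, but its adjusted p rose to as much as 0.0759 without control culture 1, 2 or 3 or mutant culture 1. Optn was at 653, 606, 589 and 597 against 828, 722, 1016 and 1079 (0.56 ± 0.16, adjusted p = 0.0256), a call that did not pass without control culture 2, 3 or 4 or mutant culture 3 (adjusted p up to 0.0674). Sqstm1, the most abundant member here, ran from 50849.6 to 56534 in controls and was at 130535, 62175, 209253 and 72573 in mutant cultures 1 to 4. No mutant value fell within the control range, but the change of 0.95 ± 0.33 did not pass with all cultures (adjusted p = 0.0675). The fit without mutant cultures 2 and 4 left out the lowest mutant values of Sqstm1. Its larger change (1.60, adjusted p = 0.000379) follows from that choice and adds no support. Nbr1 changed by 0.17 ± 0.11, adjusted p = 0.291.

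Of the initiation genes, Ulk2 was at 1216, 1029, 1058 and 1157 normalized reads in control and 1661, 1526, 2025 and 1509.8 in mutant polyribosomal RNA (0.58 ± 0.14, adjusted p = 0.0133), and Rb1cc1 at 648, 461, 490.5 and 505 against 805, 1036, 1002 and 664 (0.73 ± 0.18, adjusted p = 0.0157, and 0.0518 without control culture 2). Neither gene's groups overlapped. Wipi1 was at 2014, 2034, 1558 and 2288 against 3025, 2272, 4784 and 4137 (0.80 ± 0.21, adjusted p = 0.0206), where mutant culture 2 lay just under control culture 4, and its adjusted p was 0.0639 without control culture 3 and 0.0502 without mutant culture 3. Several genes that had risen in total RNA did not pass in polyribosomal RNA, with log2 changes of -0.22 ± 0.19, adjusted p = 0.431 for Ulk1, 0.27 ± 0.17, adjusted p = 0.259 for Atg13, 0.09 ± 0.14, adjusted p = 0.665 for Pik3r4 and 0.19 ± 0.16, adjusted p = 0.385 for Atg9a. Atg101 changed by 0.22 ± 0.13, adjusted p = 0.223, Wipi2 by -0.04 ± 0.15, adjusted p = 0.86 and Atg2b by -0.26 ± 0.15, adjusted p = 0.215. No gene of the PI3-kinase, conjugation or ATG4 groups passed, their log2 changes lying between -0.24 (Atg5, at 2234 ± 195 against 1902 ± 333) and 0.34 (Pik3c3).

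Translational efficiency, taken as the log2 ratio of polyribosomal to total reads within a culture, was higher in mutants for 2 members and lower for 3, against 5.07% and 7.89% of the 14333 genes tested, or 13% in either direction. Those 5 calls are a share of the 35 members close to that of all tested genes. The ATG8 gene Map1lc3a and the receptor gene Tax1bp1 gained, while the kinase gene Ulk1, the lipid transfer gene Atg2a and the scramblase gene Atg9a lost. The members' median change was 0.06, beside 0.01 over all tested genes, and 7 were higher and 5 lower at an unadjusted p of 0.05, against 13.6% and 16% of tested genes. The groups did not overlap for 2 members with mutants above and 3 with mutants below, against 8.16% and 10.8% of tested genes. All 5 calls were absent when limma ran without variance trend and robust moderation, without culture as a block, or with the Y-linked covariate, and in each of these fits no gene at all was called, although 3980, 2221 and 2214 genes, in that order, had an unadjusted p under 0.05. Rescaling the libraries to a common column total gave 5 gains and 3 losses, beside 920 and 946 over all tested genes. Leaving out single cultures gave 0 to 4 gains, with 0 without control culture 2 or 3 or mutant culture 1 or 2. Over all tested genes these fits gave 329, 326, 189 and 654 gains, in that order, against 727 with all cultures. Without control culture 4 the 1 gain was Map1lc3b, and without mutant culture 3 it was Tax1bp1, beside 654 and 371. The 4 gains without control culture 1 were Map1lc3a, Tax1bp1, Gabarap and Rb1cc1, beside 1496. Those without mutant culture 4, also 4, were Map1lc3a, Atg4d, Gabarap and Gabarapl2, beside 713. Losses numbered 1 to 4, with 1 without control culture 3 or mutant culture 1, beside 439 and 460 over all tested genes. The 4 losses came without control culture 1, beside 1786 against 1131 with all cultures.

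Ulk1 had the largest change in efficiency among the members. Its log2 ratios were 1.64, 1.70, 1.81 and 1.55 in control cultures 1 to 4 and 0.94, 1.09, 1.25 and 0.58 in mutant cultures 1 to 4, where only differences between cultures can be read because the tables were normalized separately. All mutants lay below all controls, with culture 4 lowest, and the difference was -0.71 ± 0.14 (adjusted p = 0.00733). In reads, Ulk1 was at 9702, 7664, 7816 and 7547 in control and 7649, 7742, 9032 and 4478 in mutant polyribosomal RNA, with overlapping groups, while its total RNA was higher. Leaving out any 1 culture kept this call, with an adjusted p of at most 0.032.

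The log2 ratios of Atg2a were 1.34, 1.01, 1.44 and 1.18 in controls and 0.53, 0.79, 0.91 and 0.35 in mutants, without overlap (-0.60 ± 0.14, adjusted p = 0.014). Those of Atg9a were -0.10, 0.13, 0.44 and 0.06 against -0.30, -0.23, -0.38 and -0.47, also without overlap (-0.48 ± 0.13, adjusted p = 0.0249). The Atg2a call did not pass without control culture 3 or mutant culture 1 (adjusted p up to 0.0524), nor the Atg9a call without control culture 2 or 3 or mutant culture 1, 3 or 4 (up to 0.109). In polyribosomal reads Atg2a was at 5859, 4298, 4317 and 4688 against 4464, 3818, 5511 and 2525 and Atg9a at 2523, 2777, 2835 and 2774 against 3668, 2910.0, 3759.5 and 2346, with overlapping groups for both.

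The ratios of Map1lc3a were 0.27, 0.36, 0.29 and 0.45 in control and 1.06, 0.68, 0.81 and 0.48 in mutant cultures 1 to 4, all mutants being higher (0.41 ± 0.13, adjusted p = 0.0471). Those of Tax1bp1 were -0.27, -1.22, -1.04 and -0.89 against -0.35, -0.12, -0.42 and -0.05, where control culture 1 lay among the mutants (0.62 ± 0.17, adjusted p = 0.0269). That control culture also held the lowest Tax1bp1 total RNA, 4739.9 normalized reads against 6221 to 7195 in the other controls. Each gain was lost on leaving out any 1 of 6 cultures, among them control cultures 2, 3 and 4 for both genes (adjusted p up to 0.165 for Map1lc3a and 0.0962 for Tax1bp1). The other ATG8 genes had log2 efficiency changes above 0 that did not pass, 0.41 ± 0.14, adjusted p = 0.056 for Map1lc3b, 0.36 ± 0.13, adjusted p = 0.07 for Gabarap, 0.34 ± 0.13, adjusted p = 0.0879 for Gabarapl2 and 0.21 ± 0.13, adjusted p = 0.271 for Gabarapl1. Of the remaining members, Pik3r4 changed by -0.42 ± 0.15, adjusted p = 0.0787 and Atg4d by 0.41 ± 0.15, adjusted p = 0.0738, and the others lay between -0.29 (Atg2b) and 0.32 (Atg12).

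**Figure D3:**
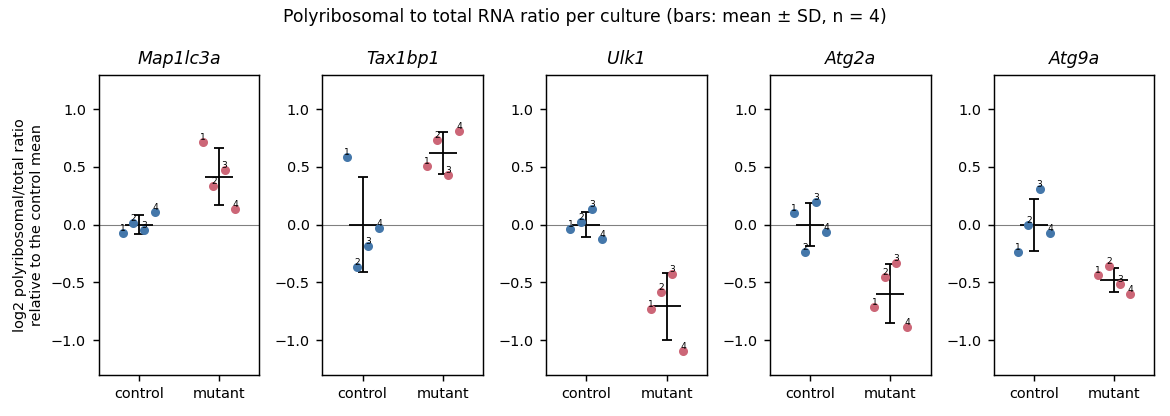
Log2 ratio of polyribosomal to total normalized reads in each culture, relative to the mean of the 4 control cultures (y axis), for the 5 autophagy genes called in translational efficiency, with culture numbers and the mean ± SD (n = 4 per genotype). The mutant points of Ulk1, Atg2a and Atg9a lie below all control points, those of Map1lc3a above all of them, and those of Tax1bp1 overlap control culture 1.

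Transcript length ran alongside the efficiency changes, over all genes and among the members. Ulk1, Atg2a and Atg9a have principal coding transcripts of 5213, 6371 and 4110 nt, and Map1lc3a and Tax1bp1 of 1112 and 3285 nt. Of 13 members of 4000 nt or more, 0 gained and 3 lost, of 15 members from 2000 to 4000 nt 1 gained and 0 lost, and of 7 shorter members 1 gained and 0 lost. Over all 4700 tested genes of 4000 nt or more, 61 gained and 852 lost, and of 3375 genes under 2000 nt 482 gained and 24 lost, while of 5494 genes from 2000 to 4000 nt 123 gained and 242 lost. The Spearman coefficient of length with the log2 efficiency change was -0.34 across the 35 members and -0.44 across 13569 tested genes, as a description over genes that share the same libraries and are not independent replicates. By median, members of 4000 nt or more changed by -0.0007 in log2 efficiency, against -0.17 for all tested genes of that length. From 2000 to 4000 nt the medians were 0.06 and -0.02, and under 2000 nt 0.21 and 0.23. The part of length in the members' changes was not tested.

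**Figure D4:**
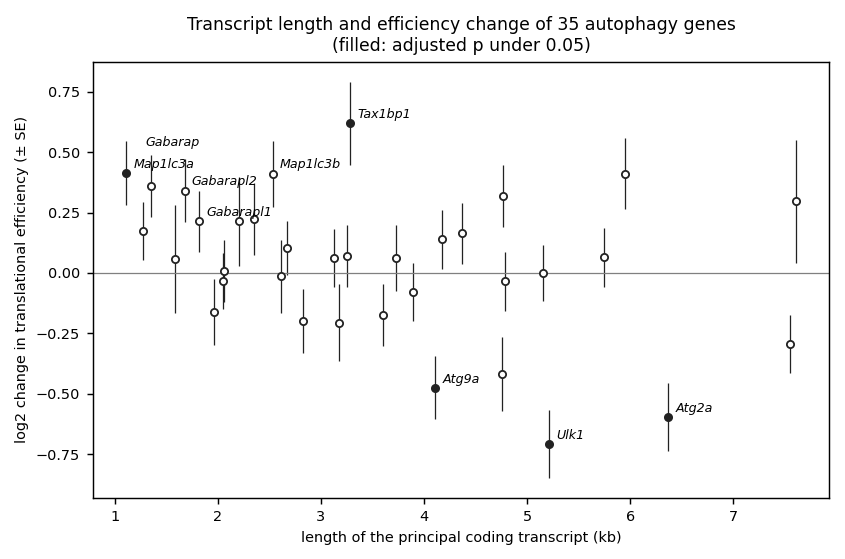
Length of the principal coding transcript (x axis, kb) against the log2 change in translational efficiency in mutant cultures (y axis, ± SE) of the 35 autophagy genes, with filled points for the 5 past an adjusted p of 0.05. The 3 losses lie at 4110 nt and longer and the 2 gains at 1112 and 3285 nt, with the open ATG8 points (named) above 0.

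Other genes of the pathway, from a list of 50 of which 49 were tested, were called higher more often than lower in both kinds of RNA. In total RNA 21 were higher and 4 lower, against 19.7% and 20.7% of all tested genes, and in polyribosomal RNA 13 and 2, against 11.7% and 11.9%. In efficiency 1 was higher and 3 lower, against 5.07% and 7.89%. The rises with the smallest p in total RNA were Retreg1, an endoplasmic reticulum receptor (log2 change 1.38 ± 0.20, adjusted p = 0.00263), Fyco1, which links autophagosomes to kinesin (0.66 ± 0.12, adjusted p = 0.0038), Vamp8, a fusion protein of late endosomes and lysosomes (0.93 ± 0.18, adjusted p = 0.00475), and Vps11 of the tethering complexes (0.38 ± 0.08, adjusted p = 0.00593). The 4 falls were Tbc1d5 (-0.37 ± 0.08, adjusted p = 0.00874), Wdr45b, a WIPI relative (-0.35 ± 0.09, adjusted p = 0.012), the mitophagy receptor gene Bcl2l13 (-0.25 ± 0.07, adjusted p = 0.0221) and Atg9b (-0.67 ± 0.20, adjusted p = 0.026), the paralog of Atg9a. The rises in polyribosomal RNA included Vamp8 (1.61 ± 0.18, adjusted p = 0.000849), the receptor gene Tex264 (0.64 ± 0.14, adjusted p = 0.0101) and the mitophagy kinase gene Pink1 (1.06 ± 0.25, adjusted p = 0.0143), and the falls were Atg9b (-1.31 ± 0.28, adjusted p = 0.00864) and Bcl2l13 (-0.43 ± 0.11, adjusted p = 0.0163). Vamp8 also gained efficiency (0.67 ± 0.16, adjusted p = 0.0133), while the autophagosome maturation genes Tecpr1 (-0.57 ± 0.13, adjusted p = 0.0131) and Epg5 (-0.60 ± 0.14, adjusted p = 0.0135) and the kinase gene Dapk1 (-0.52 ± 0.13, adjusted p = 0.0172) lost it. These are transcript measurements, and flux of cargo through autophagy was not analysed here.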

How the data were processed

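Total and polyribosomal polyadenylated RNA of 4 control and 4 mutant NSC cultures was sequenced in paired-end reads, after 15 minutes of cycloheximide, from libraries that keep no record of strand. According to the study's methods section and the processing notes of the submitters, the authors trimmed the reads, aligned them to mm10 with STAR and normalized them with DESeq2. The deposited values are a signal, namely reads of a gene over a normalization factor, with total and polyribosomal RNA in separate tables. The read counter is not given in the sources used here. Among low values, most lay at multiples of a step, the worth of 1 read, but no more than 62.8% to 89.5% per library lay within 0.1 of a multiple, so whole reads were not recovered, and depth was estimated as column total over step. Of 24972 rows per table, 26 with names turned into dates were left out.

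limma 3.58.1 in R 4.3.3 was run on log2(value + 1) with a variance trend, robust moderation and Benjamini-Hochberg adjustment over all genes with a mean of at least 10, at a threshold of 0.05, since normalized values do not suit a count model. Log2 changes are mutant against control on that scale, ± SE, and understate those of low genes. Each kind of RNA was fitted by genotype over 8 libraries, and efficiency as the interaction of genotype and fraction over 16 libraries with culture as a block. The fits were tested on simulated data. Total and polyribosomal libraries of a culture share an identifier in the labels, and their deviations from group means correlated at 0.233 to 0.731. Same-numbered control and mutant cultures are different cultures. The labels give neither sex nor litter of a culture, and p-values cover no more than the spread among these cultures.

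The members, lists, motifs and alternatives were chosen with earlier results of these data known. The text names all 35 members, Tsc2 and, of the other autophagy genes, up to 4 rises and 4 falls per comparison by smallest p. Alternatives were the pseudocount (0.5 or 10), the filter (a mean of 1 or 100), scaling (column total or upper quartile), plain limma, leaving out cultures, a Y-linked covariate and the block. Transcript lengths, exons and coordinates are from GENCODE M21 (GRCm38), the length being that of the longest principal coding transcript, and promoter windows are from RefSeq. Rb1cc1, Becn1, Pik3c3, Atg12, Atg16l1 and Map1lc3a had no window matched. The values of one gene of the wider pathway list are not reported here.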

Additional observations from a re-analysis of the deposited data

Results flagged for a closer look

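In 7 of 140 groups of 4 cultures (35 members, each in 4 groups), 1 culture stood far from the other 3 by Dixon's test at its 95% critical value, which chance passes in about 1 group in 20. Control culture 1 was high in polyribosomal RNA for 4 members, with 9701.5 normalized reads of Ulk1, 2161 of Pik3c3, 2525 of Atg5 and 6359 of Nbr1. The others were Ulk2 in the total RNA of control culture 2, low at 2311, Becn1 in the polyribosomal RNA of mutant culture 2, low at 4718, and Pik3r4 in the polyribosomal RNA of mutant culture 3, low at 849.9.

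The log2 change in polyribosomal RNA differed from that in total RNA for 5 members, by the interaction of genotype and fraction in limma. The difference was -0.71 for Ulk1 (adjusted p = 0.00733), -0.60 for Atg2a (adjusted p = 0.0140), -0.48 for Atg9a (adjusted p = 0.0249), 0.41 for Map1lc3a (adjusted p = 0.0471) and 0.62 for Tax1bp1 (adjusted p = 0.0269). Both fractions come from the same 4 cultures per genotype.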

How the results depend on the processing

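No called member changed sign under any of the 18 alternatives per comparison. Of the log2 changes of single members, 569 kept their side of the threshold in total RNA, 47 lost a call and 14 gained one, with 589, 25 and 16 in polyribosomal RNA and 577, 38 and 15 in efficiency. Pseudocounts of 0.5 and 10 left all counts of calls as reported.

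Against 13 rises and 2 falls in total RNA, leaving out single cultures gave 8 to 16 and 1 to 3, and against 9 and 0 in polyribosomal RNA 5 to 11 and 0. Against 2 gains and 3 losses in efficiency, it gave 0 to 4 and 1 to 4. Calls over all tested genes ranged from 4195 to 6649 in total RNA in these fits (6035 with all cultures). The ranges were 1884 to 4087 in polyribosomal RNA (3403) and 649 to 3282 in efficiency (1858). With the Y-linked covariate, total RNA had 1 rise and 0 falls, polyribosomal RNA 0 rises, and efficiency 0 gains and 0 losses. The changes that lost their call with it kept their sign. Efficiency changes were 0.58 for Map1lc3a (0.41 as reported), 0.54 for Tax1bp1 (0.62), -0.63 for Ulk1 (-0.71), -0.60 for Atg2a (-0.60) and -0.39 for Atg9a (-0.48). Since Y-linked expression was not balanced between genotypes, this fit cannot fully tell Y-linked level and genotype apart. Without mutant cultures 2 and 4, polyribosomal RNA had 16 rises and 1 fall, and efficiency 5 gains and 1 loss, from 2 mutant cultures. Over all tested genes, these fits gave 2587 rises and 2815 falls in polyribosomal RNA, and 997 gains and 755 losses in efficiency. Rescaling to the column total gave 15 rises and 1 fall in total RNA, 12 rises in polyribosomal RNA and 5 gains in efficiency. It moved the median log2 change of the members to 0.35 in total and 0.34 in polyribosomal RNA. The median of all genes moved to 0.11 and 0.13. Over all genes 3838 were then higher and 2263 lower in total RNA (2944 and 3091 as deposited), and 2579 and 927 in polyribosomal RNA (1690 and 1713). A mean of at least 1 gave 1 gain in efficiency, and a mean of at least 100 gave 3 gains there and 3 falls in total RNA. Plain limma gave 0 gains and 0 losses in efficiency. The causes were not tested.

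With the culture number as a replicate block, total RNA had 11 rises and 1 fall and polyribosomal RNA 8 rises, and over all genes 4741 and 2361 calls against 6035 and 3403. Same-numbered control and mutant libraries deviated with correlations of -0.127 to 0.127. Control culture 4 correlated best with mutant culture 4 in both kinds of RNA, and control culture 2 with mutant culture 2 in total RNA. In the other cases a different number matched best. With 4 cultures per genotype, these correlations cannot decide whether cultures shared a litter or batch. Without the culture block, efficiency had 0 gains and 0 losses.

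Members that did not pass the threshold are not shown to be unmoved.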

Other observations

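Several members share annotated exon bases with a neighbour, which reads without strand cannot separate. Becn1 shares 43.9% of its exon bases with Cntd1 on the opposite strand, but Cntd1 was low, at 121 normalized reads in control and 85.9 in mutant total RNA against 6815 and 5975 for Becn1. Sqstm1 shares 17.3% with Mrnip, which was at 520.03 and 530.5 normalized reads in control and mutant total RNA (log2 change 0.02, adjusted p = 0.883). Atg9a shares 31.8% with Gm29253 on the same strand, for which no value is given here, and 0.798% with Ankzf1 on the opposite strand, whose total RNA was higher (log2 change 0.43, adjusted p = 0.0425). Map1lc3b shares 0.772% with Zcchc14, whose total and polyribosomal RNA changed by 0.27 and -0.38 on the log2 scale (adjusted p = 0.116 and 0.0714).

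Kri1, the neighbour of Atg4d, fell in polyribosomal RNA as in total RNA (-0.50, adjusted p = 0.0140), where Atg4d itself did not pass the threshold (0.14 ± 0.15, adjusted p = 0.525). Atg4a is the 1 member on chromosome X, and it passed in none of the 3 comparisons.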
